A study of Mus musculus with 6 samples.

Results

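The genes described here are the sterol regulatory element-binding protein (SREBP) genes Srebf1 and Srebf2, the gene Insig1 that restrains both proteins, the cholesterol synthesis genes Hmgcs1 and Sqle, and the fatty acid synthesis genes Acaca, Fasn and Scd1. They were picked by gene symbol and make up 8 of the 22180 genes measured with a probe set that names 1 gene alone. Each had a single such probe set. Expression was measured on Affymetrix whole-transcript arrays of tibialis anterior, a fast muscle of the shin, from male C57Bl/6 mice aged 18 weeks. The first group was 3 samples of mice castrated at 11 weeks of age and labelled refed. The other was 3 samples of mice given a sham operation at the same age and labelled fasted. All mice were kept on chow for 7 weeks after surgery and then fasted overnight. The series design gives some mice a meal of 30 minutes and all mice a further fast of 4 hours, whereas the sample protocol gives the meal to all. Surgery and feeding label split the 6 mice identically, so their effects cannot be told apart.

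SREBPs are made as precursors in the endoplasmic reticulum membrane, where SCAP escorts them to the Golgi for cleavage and INSIG proteins hold the SCAP-SREBP complex back when sterols are plentiful. The cleaved fragments enter the nucleus and bind sterol regulatory elements. The Srebf1 products act mainly on fatty acid genes and the Srebf2 product mainly on cholesterol genes, and Insig1 is itself a target of the pathway. In liver, feeding and insulin raise the shorter Srebf1 isoform and its lipogenic targets, and fasting lowers them. Skeletal muscle expresses the same machinery, and its fat cells and nerve sheath also make fatty acids and cholesterol, so in whole muscle fewer cells of a type and less RNA per cell cannot be told apart.

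The arrays were alike, with median log2 values of 5.04 to 5.10 and correlations across genes of 0.990 to 0.992 within groups and 0.989 to 0.992 between groups. The 8 genes listed for fast muscle, among them Ckm and Myh4, lay above the 99th percentile of mean level. Of the 22180 genes, 3 passed an adjusted p of 0.05 in limma, a linear model test with moderated variances, which is 0.0135%, with 0.00902% lower in castrated muscle. None of the 8 genes passed, and the smallest adjusted p was 0.668. At an unadjusted p under 0.05 there was 1 of the 8, against 7.13% of all genes. The groups did not overlap for 2 of the 8, both lower in castrated muscle, against 12.8% of all genes in either direction and 7.02% in that direction, with 5.73% higher. The median log2 difference, castrated minus sham, was −0.041 over the 8 genes and −0.0056 over all genes, with 6 of the 8 negative against 51.5% of all genes. With 1 array left out the median over the 8 genes ran from −0.14 (without sham sample 2) to −0.017 (without castrated sample 2), and it was −0.096 without castrated sample 1 and −0.079 after centring on array medians.

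**Figure D1:**
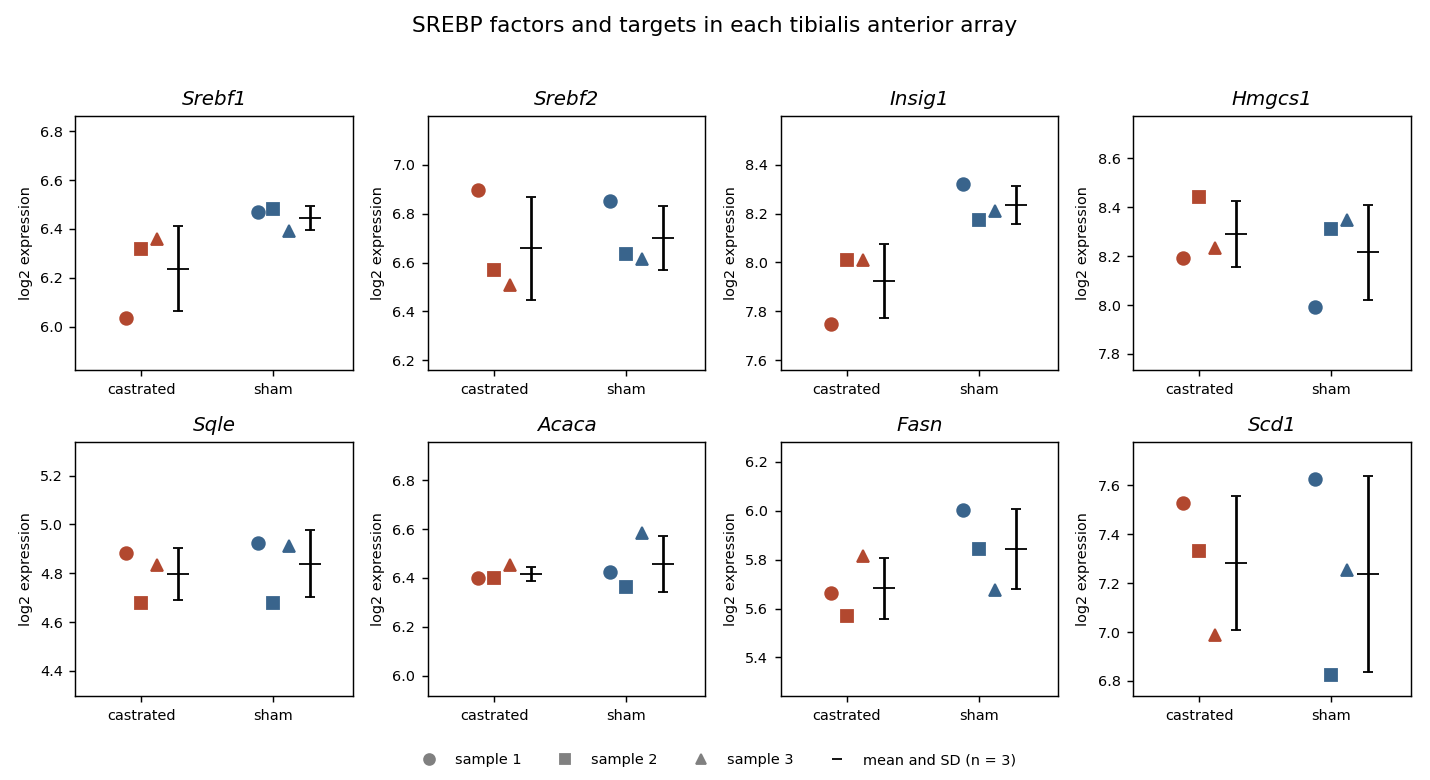
Log2 expression (vertical axes, each spanning the same range of log2 units) of the 8 genes in castrated and sham samples, with 1 point per array and the mean and SD of 3 arrays as bars. Insig1 and Srebf1 show castrated points all below the sham points, at most 8.01 against at least 8.17 for Insig1 and at most 6.36 against at least 6.39 for Srebf1, while the other 6 genes overlap between groups.

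Among the genes that control the pathway, Insig1 (Entrez 231070, chromosome 5) differed most between the groups. Its log2 values were 7.75, 8.01 and 8.01 in castrated samples 1 to 3, against 8.32, 8.17 and 8.21 in sham samples 1 to 3. Every castrated value was below every sham value, and castrated sample 1 was the lowest. The means were 7.92 ± 0.15 in castrated and 8.23 ± 0.077 in sham muscle (SD, n = 3 each), a log2 difference of −0.31 with a standard error of 0.11. The castrated to sham ratio was 0.806, with a 95% interval of 0.677 to 0.958. The difference did not pass over all genes (limma unadjusted p = 0.0201, adjusted p = 0.668). Without castrated sample 1 it was −0.22.

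Srebf1 (Entrez 20787, chromosome 11), which encodes both SREBP-1 isoforms, had log2 values of 6.04, 6.32 and 6.36 in castrated samples, against 6.47, 6.48 and 6.39 in sham samples. The groups met closely, at 6.36 in castrated sample 3 and 6.39 in sham sample 3, and castrated sample 1 stood apart below the rest. The means were 6.24 ± 0.17 in castrated and 6.45 ± 0.049 in sham muscle (SD, n = 3 each), a log2 difference of −0.21 (95% interval −0.47 to 0.048, limma adjusted p = 0.758). Without castrated sample 1 the difference was −0.11. The probe set does not separate the isoforms, which start at different promoters.

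Srebf2 (Entrez 20788, chromosome 15) showed no such separation. Its log2 values were 6.90, 6.57 and 6.51 in castrated samples, against 6.85, 6.63 and 6.62 in sham samples. The highest arrays were castrated sample 1 and sham sample 1, and the groups overlapped. The log2 difference was −0.042 (95% interval −0.34 to 0.25, limma adjusted p = 0.963), so a ratio anywhere from 0.791 to 1.19 was compatible with these 6 arrays. Its sign turned without castrated sample 2 (0.0025), castrated sample 3 (0.033) or sham sample 1 (0.033), and it was −0.16 without castrated sample 1.

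Promoter sequences are shown for Srebf2, Insig1 and Hmgcs1, which are known targets of the factors themselves and which include the member with the largest group difference. Promoter windows in RefSeq (GRCm38.p6, 250 bases before to 50 after the start site) matched 6 of the 8 genes, with 3 windows for Srebf1 and none matched for Sqle and Scd1. Each is written 5′ to 3′ on the gene's strand, and capitals mark matches on either strand. The motifs were the sterol element TCACNCCAC with its shorter form TCACNCCA, the E-box core spelled CACGTG, the NF-Y box spelled CCAAT, and the Sp1 box spelled GGGCGG.
Srebf2, chr15:82147019-82147318, plus strand: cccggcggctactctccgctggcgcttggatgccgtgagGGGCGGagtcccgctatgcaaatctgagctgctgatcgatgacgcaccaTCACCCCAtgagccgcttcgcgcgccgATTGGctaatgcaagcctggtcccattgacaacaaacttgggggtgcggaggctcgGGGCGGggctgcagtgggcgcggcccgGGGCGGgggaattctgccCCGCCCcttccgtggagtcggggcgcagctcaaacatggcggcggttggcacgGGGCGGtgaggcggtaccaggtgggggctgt
Insig1, chr5:28071162-28071461, plus strand: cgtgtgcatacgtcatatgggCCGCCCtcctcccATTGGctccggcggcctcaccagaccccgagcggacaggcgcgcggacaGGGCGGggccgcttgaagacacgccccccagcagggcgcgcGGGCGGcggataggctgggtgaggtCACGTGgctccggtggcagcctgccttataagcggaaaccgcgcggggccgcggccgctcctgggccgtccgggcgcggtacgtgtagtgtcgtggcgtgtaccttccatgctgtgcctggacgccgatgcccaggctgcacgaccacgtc
Hmgcs1, chr13:119690101-119690400, plus strand: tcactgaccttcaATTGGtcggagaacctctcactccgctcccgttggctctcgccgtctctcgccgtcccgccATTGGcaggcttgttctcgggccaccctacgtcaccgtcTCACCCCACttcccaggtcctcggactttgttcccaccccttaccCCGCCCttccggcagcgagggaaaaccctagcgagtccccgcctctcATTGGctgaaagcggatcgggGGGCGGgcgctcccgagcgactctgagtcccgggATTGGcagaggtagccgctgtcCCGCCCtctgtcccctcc
The longer sterol element was present in the Hmgcs1 window alone among the 8 member windows, from −137 to −129 relative to the start site, and in 1.24% of all 32851 windows. The shorter form, searched after the windows had been seen, contains the first 8 bases of the longer one and matched Hmgcs1 again and Srebf2 from −162 to −155, against 4.36% of all windows. CACGTG, also searched afterwards, was found in the Insig1 window from −101 to −96 and in 7.15% of all windows, and the palindrome TCACGTGA, which contains it, in none of the 8 and 0.974% of all. CCAAT matched 4 times in the Hmgcs1 window, 3 times in the Fasn window, where matches on the 2 strands overlapped, and once each in those of Srebf2 and Insig1 and in Srebf1 windows 1 and 3, against 37.4% of all windows with at least 1 match. GGGCGG matched 5 times in the Srebf2 window 3 times each in those of Insig1, Hmgcs1 and Srebf1 window 2 and 2 times in Srebf1 window 3, against 35.7% of all windows. The single Acaca window held none of these motifs. These are matches of letters and were not tested as binding sites.

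Of the cholesterol synthesis genes, Hmgcs1 (Entrez 208715, chromosome 13) encodes the cytosolic synthase that makes HMG-CoA. Its log2 values were 8.19, 8.44 and 8.23 in castrated samples, against 7.99, 8.31 and 8.35 in sham samples. The extremes were castrated sample 2 at the top and sham sample 1 at the bottom, and the other arrays lay between them in mixed order. The log2 difference was 0.073 (95% interval −0.22 to 0.36, limma adjusted p = 0.930), and it was −0.039 without sham sample 1, −0.0039 without castrated sample 2 and 0.14 without sham sample 3. Its interval includes 0, and whether the motif matches in the promoter windows relate to these expression values was not tested.

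Sqle (Entrez 20775, chromosome 15) encodes squalene epoxidase, which adds the first oxygen to squalene. Log2 values of Sqle were 4.88, 4.68 and 4.83 in castrated samples, against 4.92, 4.68 and 4.91 in sham samples. Sample 2 was the lowest array in both groups. The means of 4.80 ± 0.11 in castrated and 4.84 ± 0.14 in sham muscle (SD, n = 3 each) differed by less than either SD. The log2 difference was −0.040 (95% interval −0.29 to 0.21, limma adjusted p = 0.956), and it was 0.020 without castrated sample 2 and 0.0015 without sham sample 1, and omitting sham sample 2 gave −0.12. Sqle is the dimmest of the 8 relative to the 22180 genes, at percentile 36.3 of mean level, and no test against background was made.

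Among the lipogenic genes, Acaca (Entrez 107476, chromosome 11) encodes the acetyl-CoA carboxylase that makes malonyl-CoA for fatty acid synthesis. Log2 values of Acaca were 6.40, 6.40 and 6.45 in castrated samples, against 6.43, 6.36 and 6.58 in sham samples. The castrated values lay inside the sham range. The log2 difference was −0.039 (95% interval −0.27 to 0.19, limma adjusted p = 0.953), with 0.024 without sham sample 3 and −0.087 without sham sample 2.

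Fasn (Entrez 14104, chromosome 11) encodes fatty acid synthase, which builds palmitate from malonyl-CoA. Log2 values of Fasn were 5.66, 5.57 and 5.82 in castrated samples, against 6.01, 5.85 and 5.68 in sham samples. The groups crossed, since castrated sample 3 was above sham sample 3. The means were 5.68 ± 0.12 in castrated and 5.84 ± 0.16 in sham muscle (SD, n = 3 each), a log2 difference of −0.16 (95% interval −0.43 to 0.11, limma adjusted p = 0.816). It ran from −0.24 without sham sample 3 to −0.079 without sham sample 1.

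Scd1 (Entrez 20249, chromosome 19) encodes the stearoyl-CoA desaturase that makes monounsaturated fatty acids, and it varied more between arrays than the other 7 genes. Its log2 values were 7.53, 7.33 and 6.99 in castrated samples, against 7.63, 6.83 and 7.25 in sham samples. Sham samples alone spanned 0.80 log2 units, and they held both the highest and the lowest of the 6 values. The SD over the 6 arrays was 0.31, at the 92.9th percentile of all genes, against 0.077 for Acaca, at the 9.17th percentile. The log2 difference was 0.045 (95% interval −0.43 to 0.52, limma adjusted p = 0.975), which ran from −0.16 without sham sample 2 to 0.24 without sham sample 1 and was −0.078 without castrated sample 1. A ratio anywhere from 0.744 to 1.43 was compatible with these arrays.

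**Figure D2:**
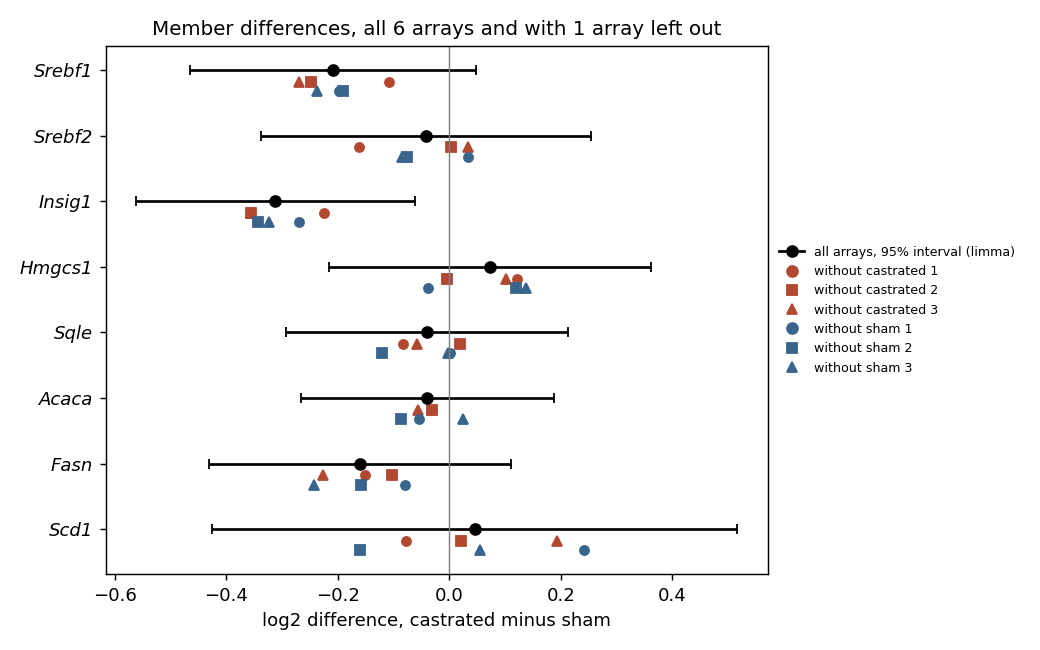
Log2 difference, castrated minus sham (horizontal axis), of the 8 genes (rows). Black points and bars are the estimate and 95% interval from all 6 arrays, and coloured points are the estimate with 1 array left out; the Insig1 interval, −0.56 to −0.062, is the 1 interval that does not include 0, and Srebf1, Insig1 and Fasn keep their sign with each array left out.

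Across arrays the genes did not follow a single order. Castrated sample 1 was the lowest array for Srebf1 (−0.30 log2 units from that gene's mean) and Insig1 (−0.33), yet the highest for Srebf2 (0.22) and the next below sham sample 1 for Scd1 (0.27). Sham sample 1 was highest for Insig1, Fasn, Sqle and Scd1 and lowest for Hmgcs1. Likeness between profiles was measured as the root mean square difference of log2 values after centring each gene on its mean over the 6 arrays. Srebf1 and Insig1 were the most alike pair, at 0.074, with 176 of the 22180 genes nearer to Srebf1 and 78 nearer to Insig1. Srebf1 and Srebf2 were 0.25 apart, with 15867 genes nearer to Srebf1.

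Among 10351 named genes at or above the 50th percentile of mean level, the profiles nearest to Srebf1 were those of Cog7, a Golgi tethering complex subunit, at 0.022, and Spryd7 at 0.037. Nearest to Insig1 were Mocos, the molybdenum cofactor sulfurase, at 0.025, and the Mediator subunit Med25 at 0.031. Scd1, with its wider swings, had Anxa2, a membrane-binding annexin, at 0.085, and Cox7b, a cytochrome oxidase subunit, at 0.10. These are descriptions of 6 arrays, chosen as the closest of many genes.

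**Figure D3:**
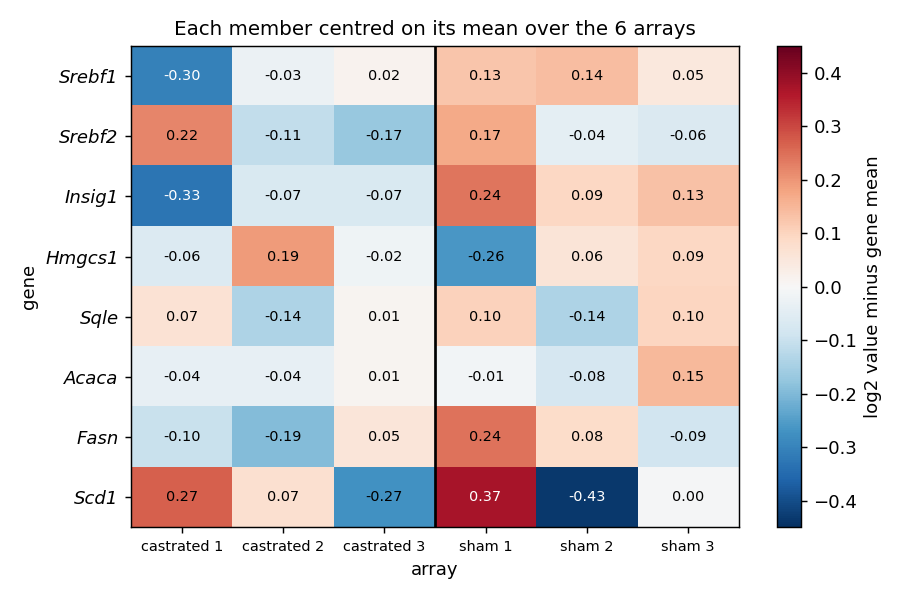
Log2 value of each gene (rows) minus its mean over the 6 arrays (columns, castrated left of the line and sham right of it). Srebf1 and Insig1 share a low castrated sample 1 (−0.30 and −0.33), where Srebf2 and Scd1 are above their means (0.22 and 0.27).

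The wider pathway was read from 7 lists with 92 measured genes of 103, the 8 described above included. None of the 92 passed over all genes in limma, where 0.0135% of all genes did, and the smallest adjusted p was 0.597. At an unadjusted p under 0.05 there were 6, or 6.52%, against 7.13% of all genes. All 6 were lower in castrated muscle, where 3.51% of all genes were lower at that p and 3.62% higher. They were Insig1, Hsd17b7, Lss, Scarb1, Npc1 and Scd3. Over the 92 genes 56 were lower and 36 higher, with a median of −0.036.

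Genes of SREBP control were lower for 12 of 14 measured, against 51.5% of all genes. In limma 1 of the 14, or 7.14%, had an unadjusted p under 0.05, against 7.13% of all genes. The smallest limma adjusted p was 0.668. The list mixes Scap, which escorts SREBPs, with Insig1 and Insig2, which restrain them, so its median gives no direction of the pathway. That median log2 difference was −0.086. It was −0.13 when castrated sample 2 was left out and −0.079 when castrated sample 3 was, the extremes over the 6 arrays. Per array, with each gene centred, the median of the list was −0.12, −0.035 and −0.029 in castrated samples, against 0.015, 0.058 and 0.056 in sham samples. The castrated medians were all below the sham medians, with castrated sample 1 the lowest. Erlin1, part of the complex that degrades the sterol-sensing machinery, differed by −0.22 and Ubxn4, a cofactor in endoplasmic reticulum degradation, by −0.18, a value that was −0.12 without castrated sample 1. Scap, the escort protein, had log2 values of 7.39, 7.40 and 7.34 in castrated samples, against 7.62, 7.53 and 7.39 in sham samples, a difference of −0.14 (limma adjusted p = 0.813) that was −0.081 without sham sample 1. Insig2, the close relative of Insig1, differed by −0.028, and by 0.0094 after quantile normalization and 0.011 after cyclic loess normalization. Whether Insig1 and Insig2 differed in their response was not tested.

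Cholesterol synthesis genes were divided, with 9 of 16 lower, 7 higher and a median of −0.021, which was 0.0023 after cyclic loess normalization, −0.058 after centring on array medians and 0.013 among genes at or above the 50th percentile of level. With 1 array left out it ran from −0.056 (without castrated sample 1) to 0.0042 (without sham sample 1). Hsd17b7, which reduces the 3-keto group of sterol intermediates, had log2 values of 5.51, 5.77 and 5.79 in castrated samples, against 6.09, 5.97 and 6.26 in sham samples. Its groups did not overlap, with a castrated to sham ratio of 0.748 (95% interval 0.619 to 0.905, limma adjusted p = 0.597). Lss, lanosterol synthase and the enzyme after Sqle, had log2 values of 4.98, 4.93 and 5.08 in castrated samples, against 5.06, 5.50 and 5.31 in sham samples. These overlapped at castrated sample 3 and sham sample 1, and the difference of −0.29 (limma adjusted p = 0.696) was −0.19 without sham sample 2.

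Sterol uptake and transport genes were higher for 6 of 10, with a median of 0.075 that was 0.037 after centring on array medians. Over the fits that each left out an array, it was lowest, at 0.031, when castrated sample 3 was omitted and highest, at 0.10, when castrated sample 1 was. Scarb1, the HDL receptor, nevertheless had log2 values of 6.95, 7.20 and 7.07 in castrated samples, against 7.39, 7.31 and 7.39 in sham samples. Its groups did not overlap, and the difference was −0.29 (standard error 0.10, limma adjusted p = 0.668). Npc1, which exports cholesterol from lysosomes, had log2 values of 9.67, 9.77 and 10.20 in castrated samples, against 10.10, 10.21 and 10.39 in sham samples. The groups overlapped, and its difference of −0.35 (limma adjusted p = 0.696) was −0.13 when its 2 probe sets were averaged. The dimmer probe set of Npc1 was thus higher in castrated muscle.

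Fatty acid synthesis genes were lower for 7 of 10, with a median of −0.072 that was −0.11 after centring on array medians. Leaving out 1 array moved it between extremes of −0.12 (without sham sample 2) and −0.035 (without castrated sample 2). In limma 0 of the 10 reached an unadjusted p under 0.05, against 7.13% of all genes. Enzymes that supply acetyl-CoA were Acss2, from acetate, at −0.23 (−0.13 without castrated sample 3) and Acly, from citrate, at −0.17 (−0.039 without castrated sample 2). Mid1ip1, which promotes polymerisation of acetyl-CoA carboxylase, differed by −0.21, and by −0.081 when its probe sets were averaged. Acacb, the carboxylase whose malonyl-CoA restrains fatty acid oxidation in muscle, had a log2 value of 9.69 ± 0.017 in castrated and 9.70 ± 0.053 in sham muscle (SD, n = 3 each), a difference of −0.018 (95% interval −0.23 to 0.19) that was 0.023 after quantile and 0.019 after cyclic loess normalization.

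Desaturases and elongases were higher for 8 of 13, with a median of 0.039. It was 0.0016 after centring on array medians and −0.013 among genes at or above the 25th percentile of level, and with 1 array left out its extremes were −0.00046 (castrated sample 1 omitted) and 0.076 (castrated sample 3 omitted). Scd3, a neighbouring desaturase of the same family as Scd1, had log2 values of 4.46, 4.57 and 4.91 in castrated samples, against 4.96, 4.999 and 5.07 in sham samples. The groups did not overlap and the difference was −0.37 (standard error 0.13, limma adjusted p = 0.668). The desaturases are close in sequence, and Scd3 ranked low in level (percentile 36.5). Signal shared between their probe sets was not tested. Elovl7, an elongase at the 15.7th percentile, differed by 0.31 (0.19 without castrated sample 3). Elovl6, which elongates palmitate, differed by 0.12, with −0.0070 without castrated sample 2 and 0.24 without castrated sample 1.

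Glycerolipid synthesis genes were lower for 12 of 14, against 51.5% of all genes. In limma 0 of the 14 reached an unadjusted p under 0.05. Their median was −0.044, and it was −0.082 after centring on array medians. Single omissions of an array gave −0.086 (without castrated sample 3) to −0.028 (without sham sample 1). Agpat2, an acyltransferase of triglyceride synthesis, differed by −0.31, and by −0.15 without castrated sample 3. Dgat2, which makes triglyceride, differed by −0.20, and by −0.105 without sham sample 3, and the phosphatase Lpin1 by −0.038, with 0.010 without sham sample 2 and −0.12 without sham sample 3. The LXR and ChREBP list holds these transcription factors and their partners together with LXR targets and lipid carriers, and 7 of its 15 measured genes were lower. Nr1h2, the other LXR gene, was listed but not measured. Nr1h3, the sterol receptor LXRα that activates Srebf1, had log2 values of 6.94, 6.86 and 6.93 in castrated samples, against 6.95, 6.89 and 6.86 in sham samples. The difference was 0.011 (95% interval −0.20 to 0.22, limma adjusted p = 0.985) and −0.027 after centring on array medians, with −0.0083 without sham sample 3 and 0.039 without castrated sample 2. The carbohydrate-responsive factor Mlxipl (ChREBP) differed by 0.11 (0.019 without sham sample 3, 0.17 without sham sample 2) and its partner Mlx by −0.19. The retinoid receptor Rxrg differed by −0.27, with −0.42 without sham sample 3 and −0.14 without sham sample 1. The median of that list was 0.011, with −0.027 after centring on array medians, −0.0042 with array weights, −0.0053 leaving out castrated sample 1 and 0.039 leaving out castrated sample 2.

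**Figure D4:**
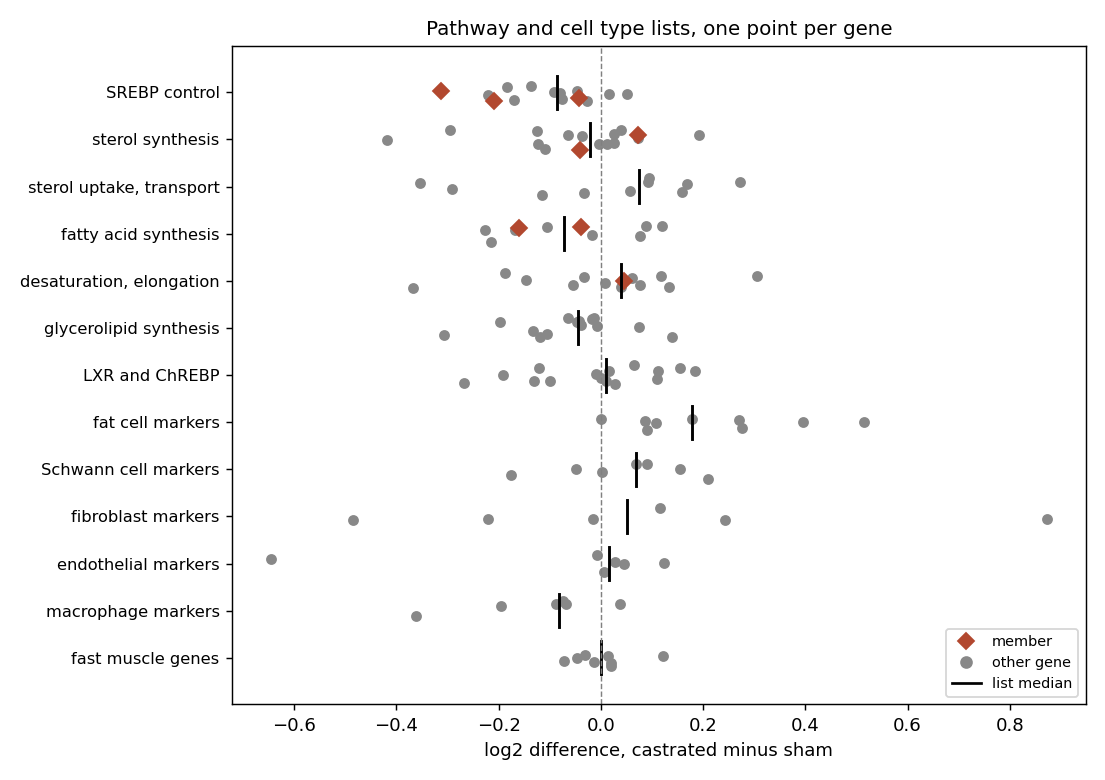
Log2 difference, castrated minus sham (horizontal axis), of each measured gene in 13 lists (rows), with diamonds for the 8 genes described and black bars for list medians. The SREBP control median is −0.086 and the fat cell marker median 0.18, and Hsd17b7 at −0.42 is the lowest pathway gene.

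Of the 8 genes described above, Hmgcs1 (0.073) and Scd1 (0.045) were higher in castrated muscle and 6 were lower. Fat cells make fatty acids, and of 9 measured markers of these cells 8 were higher, against 48.5% of all genes. The median log2 difference of the markers was 0.18 (0.13 without sham sample 1 and 0.28 without sham sample 3). Among genes at or above the 50th percentile of level it was 0.099. The summed linear signal of the markers was 2724 to 2886 in castrated and 2078 to 2561 in sham samples. Fabp4 alone made up most of that sum, with mean log2 values of 11.19 in castrated and 10.92 in sham muscle. Adipoq, by comparison, had means of 5.45 and 5.18, and Plin1 of 5.29 and 5.11. Pparg (0.40) and Fabp4 (0.28) had groups that did not overlap, and the defining markers Adipoq (0.27, and 0.13 without sham sample 2) and Plin1 (0.18, and 0.076 without sham sample 1) overlapped. None of the 9 passed over all genes (smallest limma adjusted p = 0.658). The part of these markers in the values of the lipogenic genes was not tested. Schwann cell markers, with 7 measured, had a median of 0.069, which was −0.036 when castrated sample 1 was omitted and 0.12 when castrated sample 3 was, and a summed signal of 477 to 567 in castrated and 477 to 504 in sham samples. The median was 0.050 for fibroblast genes and −0.081 for macrophage genes. With 1 array left out the fibroblast median was between −0.035 (castrated sample 1 omitted) and 0.20 (castrated sample 3 omitted), and that of macrophage genes from −0.23 (without sham sample 2) to 0.045 (without sham sample 1). The median was 0.017 for endothelial genes and 0.00037 for fast muscle genes, and both were negative after centring on array medians (−0.021 and −0.037). Without 1 array the endothelial median ran from −0.021 (without sham sample 1) to 0.058 (without castrated sample 2), and the fast muscle one from −0.047 (without sham sample 3) to 0.018 (without castrated sample 1). Summed signals overlapped between the groups in these 4 lists. Leaving out 1 array in turn, the difference of S100b (0.21) went down to 0.13 (castrated sample 3 omitted). The difference of Cnp (−0.18) ran from −0.32 (sham sample 2 omitted) to −0.081 (sham sample 1 omitted). That of Kdr (0.12) ran from 0.061 (sham sample 1 omitted) to 0.20 (sham sample 3 omitted). Pvalb (0.12) ran from 0.013 (sham sample 3 omitted) to 0.23 (sham sample 1 omitted), and Ckm (−0.072) ran from −0.12 (sham sample 3 omitted) to −0.0046 (sham sample 1 omitted). Csf1r (−0.20) ran from −0.40 (without sham sample 3) to 0.056 (without sham sample 1). Other single markers stood further out, with Col1a1 at 0.87, Pi16 at −0.49, Cldn5 at −0.65 and Cd14 at −0.36 (−0.22 without castrated sample 2), and none of them passed (smallest limma adjusted p = 0.486).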

How the data were processed

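The authors deposited a table of log2 values, 1 per probe set and array, already normalized. The submitters' processing notes name Partek, and how background was corrected and values were summarized and normalized is not given in the sources used here. Per the labels' protocols, 300 ng of total RNA from about 25 mg of muscle was labelled with biotin. Of 41345 probe sets, 23521 carry 1 symbol in the platform annotation, 1814 several and 16010 none. Symbols were updated through Entrez identifiers (23328 matched, GRCm38.p6 gene table). Each of 22180 genes was represented by its brightest probe set over the 6 arrays, without a filter on dim genes. Samples were grouped by title and compared with limma 3.58.1 in R 4.3.3 (castrated minus sham, no covariate, since feeding label follows surgery), p-values adjusted by Benjamini-Hochberg over the 22180 genes, and 0.05 as threshold. The procedure was also run on simulated data with independent noise and planted differences. That run does not show whether differences as small as most of those here would be detected. The labels give no batch and do not say how the mice were housed together. The p-values and intervals rest on the spread among 3 samples a group, which may be technical. Through the moderation they also rest on the variances of all genes. Arrays have no read depth, and their number limits the precision.

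The members and lists were chosen with earlier results of these data known. Named genes were the 8 members, the 2 others with the smallest p in each of 13 lists, a set given whatever its values, and the 2 nearest profiles of the 3 members that varied most. Myh4 was named besides as an example of its list. Figures were drawn with matplotlib 3.10.9. Alternatives were 3 normalizations, 2 filters, 2 treatments of probe sets, a block, 3 variance or weight settings, another threshold and leaving out each array.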

Additional observations from a re-analysis of the deposited data

How the results depend on the processing

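Under all 18 alternatives 0 of the 8 genes passed over all genes, and the adjusted p of Insig1 ran from 0.352 to 0.852. The count of all genes past the threshold was 3, against 9 with a filter at the 25th percentile of mean level, 16 at the 50th (which leaves out Sqle), 10 with a trended robust prior and 0 in limma without variance moderation, where 1412 genes and 1 member had an unadjusted p under 0.05. With 1 array left out that count of genes ran from 3 to 4. The count of members at an unadjusted p under 0.05 ran from 0 (without castrated sample 1 or sham sample 1) to 1, and their median difference from −0.14 (without sham sample 2) to −0.017 (without castrated sample 2), with −0.096 without castrated sample 1. Taking the replicate number as a block gave 2 genes and 0 members past the threshold, and Insig1 an adjusted p of 0.653. Deviations of same-numbered samples from their group means correlated at 0.076, 0.033 and 0.047. Each was the best match of its samples, a hint of pairing from the data and not the design, but all were under 0.1 and the labels give the numbers no meaning, so the samples were not treated as pairs.

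Signs turned mostly for values near 0, but also for Csf1r (−0.20) and Elovl6 (0.12), and the cause was not tested. With 1 array left out, Srebf2 ran from −0.16 to 0.033, Hmgcs1 from −0.039 to 0.14, Sqle from −0.12 to 0.020, Acaca from −0.087 to 0.024 and Scd1 from −0.16 to 0.24. Insig2 ran from −0.082 to 0.0032, Acacb from −0.034 to 0.013, Elovl6 from −0.0070 to 0.24, Lpin1 from −0.12 to 0.010, Nr1h3 from −0.0083 to 0.039, Csf1r from −0.40 to 0.056, Anxa2 from −0.20 to 0.13 and Cox7b from −0.20 to 0.12. Insig2 was 0.0094 after quantile and 0.011 after cyclic loess normalization, Acacb 0.023 and 0.019, and Nr1h3 was −0.027 after centring on array medians.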
